A study of Mus musculus with 6 samples.

Results

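The 10 genes described here regulate the fate of multiciliated cells, the epithelial cells that carry many motile cilia, and the multiplication of centrioles that precedes it. They are Gmnc, Mcidas, Trp73, Myb, Ccno, Deup1, Cdc20b, Foxj1, Rfx2 and Rfx3, taken by gene symbol from a table of 21829 genes, and all 10 were listed in it. The tissue was epididymal white adipose tissue, the fat pad beside the testis, taken at 20 weeks from male C57BL/6J mice fed a normal diet. It gave 3 libraries labelled ZFP251 KO (KO 1, KO 2 and KO 3) and 3 labelled wild type (WT 1, WT 2 and WT 3), from littermates. The labels give neither the allele nor whether the deletion was in every tissue, and nothing in them ties each library to its own mouse, so the p-values reflect spread among libraries that may be partly technical. Values were read as FPKM, counts of mapped fragments divided by transcript length and scaled for library depth. Levels of different genes can thus be compared per length.

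A progenitor becomes multiciliated when Notch signalling from its neighbours is low. The geminin relatives encoded by Gmnc (GEMC1) and Mcidas (Multicilin) then join E2F4 or E2F5 with DP1 and switch on Trp73, Myb, Ccno, Deup1, Cdc20b and Foxj1. Centrioles are multiplied on deuterosomes, which need DEUP1, and FOXJ1 and RFX factors drive the genes of the motile axoneme. In the male tract the multiciliated cells line the efferent ducts, which run from the testis to the epididymis next to the epididymal fat.

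Foxj1, the marker of these cells, was above 1 FPKM in 4 of the 6 libraries. It had 44.2, 43.2 and 20.0 FPKM in KO libraries 1 to 3, against 13.9 FPKM in WT 1 and 0.034 FPKM in WT 2, with WT 3 at 0. On the log2(FPKM + 1) scale WT 1 was nearer to each library labelled KO than to WT 2 or WT 3. Genes of other tissues beside the fat moved with it. The 8 epithelial genes (Epcam, Cdh1, Krt8 and others) summed to 93.1 to 188 FPKM in the libraries labelled KO and to 80.5, 16.3 and 8.19 FPKM in WT libraries 1 to 3, and 7 of the 7 tested were higher at an unadjusted p under 0.05 by limma, as were 9.13% of all tested genes. Epcam, Cdh1 and Cldn7 reached the filter of 1 FPKM on the mean only through the other 4 libraries, being under 1 FPKM in WT 2 and WT 3, so that count supports no difference. The 10 caput epididymis genes summed to 0.493 to 0.864 FPKM in the libraries labelled KO and 0.089 to 0.983 FPKM in WT, with Lcn5, Adam28 and Rnase9 at 0 throughout. The 10 spermatid genes followed another pattern, with 17.3, 111 and 6.98 FPKM in KO libraries 1 to 3 against 140, 3.15 and 4.9 FPKM in WT libraries 1 to 3. The 8 mature adipocyte genes were abundant in every library, Adipoq having 2097 to 2496 FPKM in the libraries labelled KO and 2792 to 5889 FPKM in WT. The part of these other tissues in the results below was not tested, and in bulk RNA fewer cells of a type cannot be told apart from less RNA per cell.

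**Figure D1:**
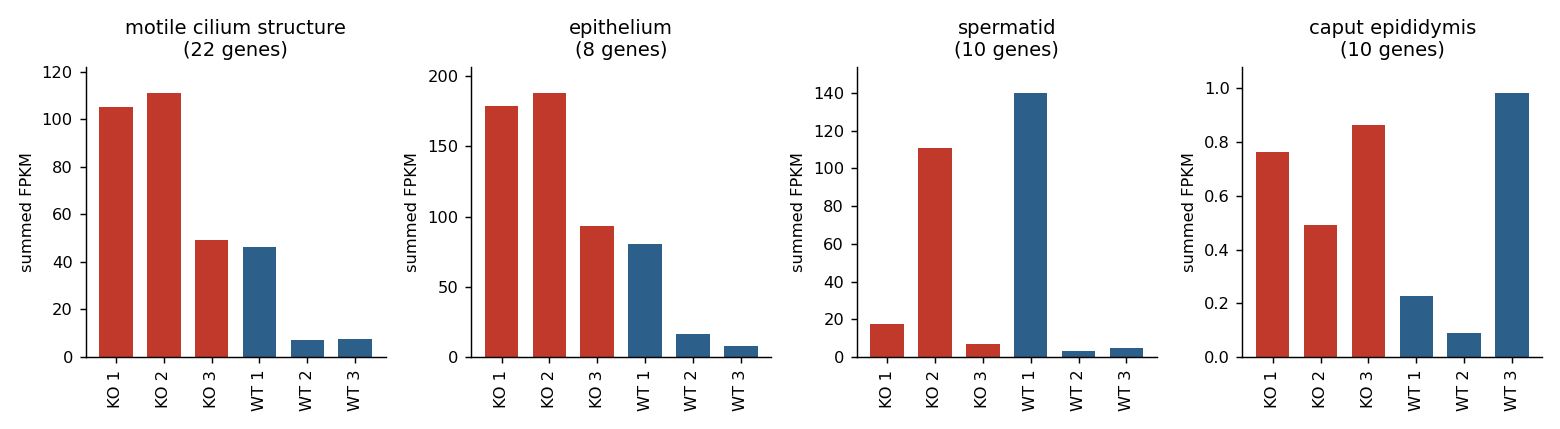
Summed FPKM (vertical axes, each from 0) of the genes of motile cilium structure and of the markers of epithelium, spermatids and caput epididymis in each library, KO in red and WT in blue. Cilium and epithelial genes are high in the 3 libraries labelled KO and in WT 1, spermatid genes are highest in WT 1 (140 FPKM) and KO 2 (111 FPKM), and the caput genes stay under 1 FPKM in sum in all 6.

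Zfp251, the targeted gene, was higher in every library labelled KO than in any WT library. It had 6.48, 5.86 and 6.48 FPKM in KO libraries 1 to 3 and 3.73, 3.56 and 2.95 FPKM in WT libraries 1 to 3. The two-sided exact permutation p was 0.1, the smallest possible with 3 libraries against 3. The labels do not give the allele, so this RNA level does not settle the genotype. Directions below are for libraries as labelled.

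Ccno, Mcidas and Cdc20b lie next to each other on the plus strand of chromosome 13. In GRCm38 (the assembly called mm10) Ccno runs from 112987802 to 112990777, Mcidas from 112993845 to 113000394 and Cdc20b from 113035111 to 113091195, with gaps of 3067 and 34716 bases. Introns of Cdc20b hold the miRNAs miR-449a and miR-449c, which act in multiciliated cells together with the miR-34 family. Their mature sequences are shown because they share a seed with miR-34a and miR-34b (bases 2 to 8, in capitals), and these libraries of mRNA do not measure mature miRNAs. The sequences are from RefSeq on GRCm38.p6.
mmu-miR-449a-5p: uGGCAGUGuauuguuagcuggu
mmu-miR-449c-5p: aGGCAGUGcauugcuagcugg
mmu-miR-34a-5p: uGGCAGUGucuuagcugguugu
mmu-miR-34b-5p: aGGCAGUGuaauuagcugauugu

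Promoter windows from RefSeq on GRCm38.p6, 250 bases before to 50 bases after a transcript start, matched 9 of the 10 genes with 12 windows, all but Foxj1. They were searched on both strands for letters bound by factors of this programme, since several of these genes moved together. The RFX letters GTTNCCA were found in 6 of these 12 windows, and in 16.6% of all 32851 windows of the table. The E2F letters GGCGGGA were also found in 6 of the 12 (11.3% of all windows), the MYB letters CAGTTG in 3 (13.7%) and the forkhead letters TGTTTAC in 1, that of Myb (3.65%). A match describes the letters and is not a measured binding site. The stretches of 30 bases around the RFX letters are given in the direction of the gene, with the matches in capitals, because they show the shared letters of the 3 neighbours on chromosome 13 beside those of Gmnc, Deup1 and Rfx2 itself.
Ccno (chr13:112987572-112987601, plus strand): cccgggctgcgGTTGCCAcggtgacgacag
Mcidas (chr13:112993662-112993691, plus strand): ggggaagccagGTTGCCAggttggttaacg
Cdc20b (chr13:113035374-113035403, plus strand): cggagatggagTGGAAACtgcaacgcaccg
Gmnc (chr16:26968400-26968429, minus strand): gccgctattaaGTTACCAtcacttgttatc
Deup1 (chr9:15627908-15627937, minus strand): ccgcgtctccaTGGCAACccacTGGGAACc
Rfx2 (chr17:56831114-56831143, minus strand): ggcgtgcagctTGGTAACcgttgccgggcg
Ccno and Mcidas hold the same GTTGCCA, 219 and 195 bases before the RefSeq transcript starts that define their windows, at 112987802 and 112993868. The RefSeq starts of Mcidas and of Cdc20b (113035379) lie further along the strand than the GENCODE gene starts given above. On the minus strand the same holds for Gmnc (26968245 against a GENCODE start of 26991652), Deup1 (15627846 against 15627933) and Rfx2 (56831008 against 56831013). The Gmnc and Cdc20b stretches thus lie inside the GENCODE genes, and that of Deup1 spans the GENCODE start. Deup1 holds a pair of matches in the opposite orientation, and Cdc20b and Rfx2 a single match in that orientation, which in Cdc20b begins 6 bases after its RefSeq start.

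The comparison of ZFP251 KO with WT asks, for these genes, whether their RNA differs with the genotype label. None of the 10 passed limma's adjusted threshold of 0.05, and neither did any of the 12539 genes tested (0%). Testing was limited to genes averaging 1 FPKM or more across the 6 libraries, which 7 of the 10 did: Foxj1, Gmnc, Myb, Ccno, Trp73, Rfx2 and Rfx3. All 7 had higher means in the libraries labelled KO and an unadjusted p under 0.05, as did 9.13% of all tested genes, and in 5 of them every library labelled KO exceeded every WT library, as in 10.1% of all tested genes. Foxj1, Gmnc, Myb, Ccno and Trp73 reached the filter only through the libraries where they were high, so these counts do not support a difference. Trp73 lay just inside the filter with a mean of 1.00 FPKM and Deup1 was next below it with 0.447 FPKM. Mcidas and Cdc20b had means of 0.043 and 0.0463 FPKM.

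**Figure D2:**
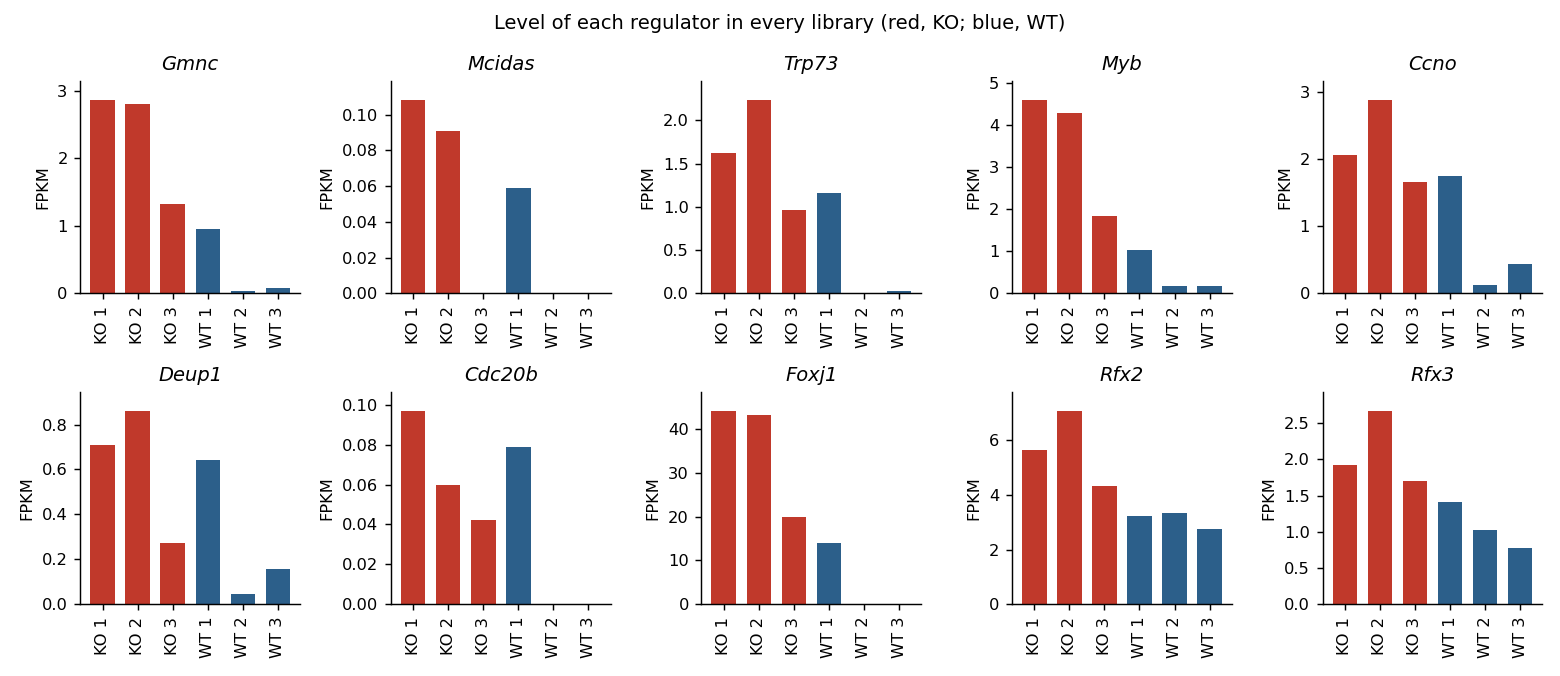
FPKM (vertical axes, each from 0) of the 10 regulators in each library, KO in red and WT in blue. Foxj1, Gmnc and Myb step down in the same way over KO 1 and KO 2, KO 3, WT 1 and the 2 other WT libraries, while Rfx2 and Rfx3 keep a level of 0.772 FPKM or more in every library.

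Among the factors that start the programme, Gmnc was the most like Foxj1. It had 2.86, 2.81 and 1.33 FPKM in KO libraries 1 to 3, against 0.951, 0.034 and 0.074 FPKM in WT libraries 1 to 3. The groups did not overlap, but WT 1 stood nearer to KO 3 than to WT 2 or WT 3. The difference was 1.33 on the log2(FPKM + 1) scale with a standard error of 0.33 (limma adjusted p = 0.223). Mcidas, which acts beside Gmnc and for a short time in differentiation, was barely detected, with 0.108 and 0.091 FPKM in KO 1 and KO 2 and 0.059 FPKM in WT 1. It was listed at 0 in KO 3, WT 2 and WT 3, so the groups overlapped. Without the filter its difference was 0.06 with a 95% interval from -0.07 to 0.19. Trp73, the p73 member of the p53 family and a direct activator of Foxj1, had 1.62, 2.23 and 0.967 FPKM in KO libraries 1 to 3. WT 1 had 1.16 FPKM and WT 3 had 0.032 FPKM, and the gene was listed at 0 in WT 2. KO 3 lay below WT 1, and the difference of 0.97 with a standard error of 0.36 did not pass (limma adjusted p = 0.308).

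Myb is a transcription factor that acts early in multiciliated progenitors and is also a gene of blood progenitors. On the log2(FPKM + 1) scale it had the largest difference after Foxj1 among the 7 tested. With 0.1 added in place of 1, Gmnc stood just above it, at 2.99 against 2.96. Myb had 4.59, 4.28 and 1.83 FPKM in KO libraries 1 to 3, against 1.04, 0.177 and 0.167 FPKM in WT libraries 1 to 3. The groups did not overlap, and the difference was 1.63 with a standard error of 0.34 (limma adjusted p = 0.223). Among blood genes, the B cell gene Cd79a did not share this order, with 1.05 to 1.40 FPKM in the libraries labelled KO and 1.54 to 3.38 FPKM in WT. Kit, a receptor of blood progenitors and of other cells, did not overlap between the groups and was higher in the libraries labelled KO, like Myb. It had 5.57, 6.61 and 3.54 FPKM in KO libraries 1 to 3, against 2.6, 2.44 and 1.16 FPKM in WT libraries 1 to 3. The other blood progenitor genes overlapped between the groups, Cd34 with 83.6 to 87.3 FPKM in the libraries labelled KO and 70.3 to 89.7 FPKM in WT, and Flt3 with 0.377 to 0.584 FPKM and 0.347 to 0.73 FPKM. The part of blood cells in the Myb level was not tested.

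The genes of centriole multiplication were low. Ccno, a cyclin-like protein needed for making centrioles in bulk, had 2.07, 2.88 and 1.66 FPKM in KO libraries 1 to 3, against 1.75, 0.124 and 0.444 FPKM in WT libraries 1 to 3. WT 1 exceeded KO 3, and the difference of 0.94 with a standard error of 0.35 did not pass (limma adjusted p = 0.311). Deup1, the scaffold of the deuterosome, had 0.709, 0.86 and 0.272 FPKM in KO libraries 1 to 3, against 0.643, 0.046 and 0.155 FPKM in WT libraries 1 to 3. WT 1 was thus within the range of the libraries labelled KO and above KO 3. Without the filter the Deup1 difference was 0.34 with a 95% interval from -0.28 to 0.96. Cdc20b, a relative of the mitotic activator Cdc20 that helps release centrioles from deuterosomes, stayed under 0.1 FPKM everywhere: 0.097, 0.06 and 0.042 FPKM in KO libraries 1 to 3, against 0.079 FPKM in WT 1 and no listed FPKM above 0 for WT 2 or WT 3. Its neighbour Ccno stood above it and above Mcidas in each of the 6 libraries.

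The factors of the mature ciliated cell split into Foxj1 and the RFX pair. Foxj1 averaged 35.8 ± 13.7 FPKM in the libraries labelled KO and 4.64 ± 8.01 FPKM in WT (SD, n = 3 each), a log2 difference of 3.80 with a standard error of 1.03 (limma adjusted p = 0.223). Rfx2, which binds X-box promoters of cilium genes and also acts in spermatids, had 5.65, 7.08 and 4.32 FPKM in KO libraries 1 to 3. It had 3.23, 3.33 and 2.75 FPKM in WT libraries 1 to 3, so that the groups did not overlap and WT 1 did not stand apart from the other WT libraries. Its difference was 0.69 with a standard error of 0.17 (limma adjusted p = 0.223). Rfx3, which shares the X-box and acts in motile and primary cilia, had 1.93, 2.67 and 1.70 FPKM in KO libraries 1 to 3, against 1.41, 1.03 and 0.772 FPKM in WT libraries 1 to 3. The groups did not overlap, and the difference was 0.58 with a standard error of 0.19 (limma adjusted p = 0.266).

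The WT libraries set against the mean of the libraries labelled KO show how these genes differed. In WT 2 and WT 3, Rfx2 stood at 58.5% and 48.5% of that mean and Rfx3 at 49.1% and 36.8%. Foxj1 stood at 0.0949% in WT 2 and Gmnc at 1.46% in WT 2 and 3.17% in WT 3. Myb was at 4.96% and 4.68%, and Ccno at 5.63% and 20.1%. In WT 1 the shares were 29.3% for Myb, 38.8% for Foxj1 and 40.7% for Gmnc, then 56.8% for Rfx2, 67.2% for Rfx3, 72.3% for Trp73, 79.5% for Ccno and 105% for Deup1. The 17 tested genes of motile cilium structure had a median of 44.7% in WT 1, with a range from 35.1% to 96.8%.

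Leaving out WT libraries moved the values. WT 1 is the 1 WT library with Foxj1 above 1 FPKM, so a fit without WT 1, or against it alone, is set by the levels of these genes, and both are given as descriptions that support no difference. Against WT 2 and WT 3 the log2 difference was 5.10 for Foxj1, 1.62 for Gmnc, 1.90 for Myb, 1.31 for Ccno, 1.33 for Trp73, 0.71 for Rfx2 and 0.70 for Rfx3. The limma adjusted p there was 0.00579 to 0.043 for Foxj1, Gmnc, Myb and Ccno and 0.0553 to 0.186 for the other three, and 3.74% of all tested genes passed as higher. Against WT 1 alone, where the lone library is assumed to vary like the libraries labelled KO, the Foxj1 difference was 1.22 with a 95% interval from -0.03 to 2.48, that of Gmnc 0.74 and that of Myb 1.10. Ccno had 0.20, Trp73 0.24, Rfx3 0.35 and Rfx2 0.64, which for Rfx2 is close to its 0.69 against all 3 WT libraries. The 95% intervals of all 7 included 0, and 3.53% of all tested genes had an unadjusted p under 0.05 by limma as higher.

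**Figure D3:**
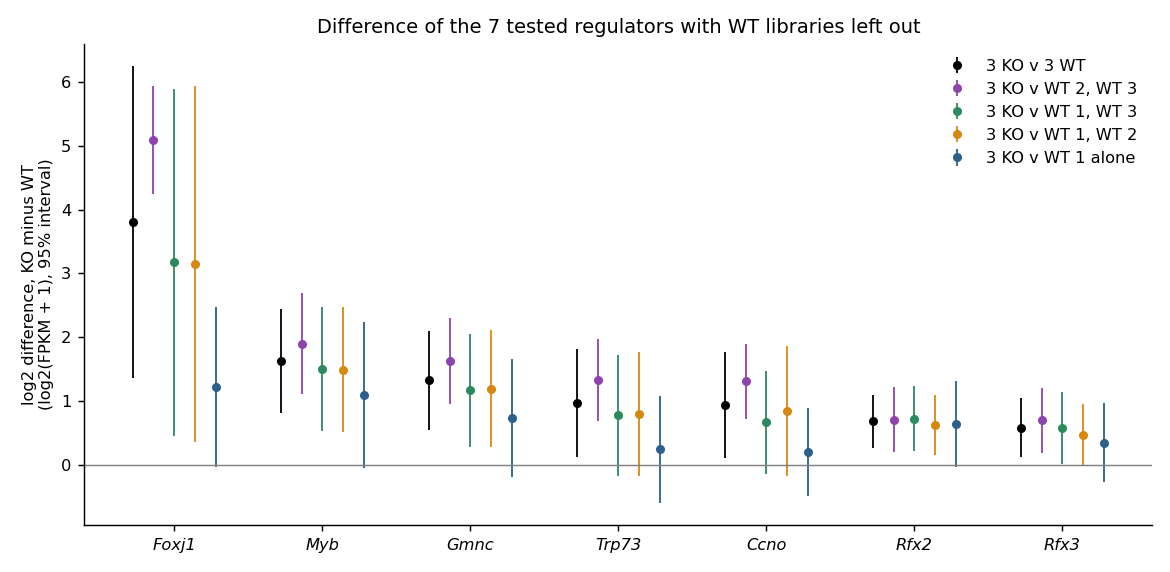
Log2 difference of the 7 tested regulators, KO minus WT, on the log2(FPKM + 1) scale with the 95% interval from limma, against all 3 WT libraries (black) and with WT libraries left out (colours). The difference of Foxj1 is 5.10 without WT 1 and 1.22 against WT 1 alone, while that of Rfx2 stays between 0.62 and 0.73.

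Set against Foxj1 within the same library, the other regulators did not keep a common ratio. Only the 4 libraries with Foxj1 at 1 FPKM or more could be used. Gmnc held almost the same share of the Foxj1 level, 6.47%, 6.51% and 6.65% in KO libraries 1 to 3 and 6.85% in WT 1. Myb held 10.4%, 9.9% and 9.13% in KO libraries 1 to 3 and 7.52% in WT 1. In contrast Ccno held 4.69%, 6.67% and 8.27% in KO libraries 1 to 3 and 12.6% in WT 1. Trp73 held 3.68%, 5.16% and 4.83% in the same libraries labelled KO and 8.37% in WT 1. Deup1 held 1.6%, 1.99% and 1.36% in KO libraries 1 to 3 and 4.63% in WT 1, the widest spread among the genes with FPKM above 0.1 in all 4 libraries (3.41 times between the highest and the lowest). Rfx2 and Rfx3 also had their highest share in WT 1, 23.3% and 10.2%, against 12.8% to 21.6% and 4.37% to 8.5% in the libraries labelled KO. Both kept 0.772 FPKM or more in WT 2 and WT 3, where Foxj1 is near 0. In WT 2 and WT 3 Ccno had 0.124 and 0.444 FPKM, Deup1 0.046 and 0.155 FPKM, and Myb 0.177 and 0.167 FPKM. Gmnc and Trp73 had 0.074 FPKM or less there. The part in these ratios of RNA that did not move with Foxj1 was not tested. WT 1 was a single library, and the difference of its shares has no replicate check. It was also the library with the most spermatid RNA, Prm1 having 3.4, 33.3 and 1.3 FPKM in KO libraries 1 to 3 and 39.2 FPKM in WT 1. Trp73, Ccno, Rfx2, Rfx3 and Deup1 were highest in KO 2, the library labelled KO with the most spermatid RNA, whereas Foxj1, Gmnc and Myb were highest in KO 1. The epithelial and motile cilium genes also summed highest in KO 2, with 188 and 111 FPKM against 179 and 105 FPKM in KO 1. KO 3 had less spermatid RNA than KO 1, with sums of 6.98 and 17.3 FPKM. Its shares of Ccno, Trp73, Rfx2 and Rfx3 were higher than in KO 1, and that of Deup1 was lower. The part of spermatid RNA in these ratios was not tested.

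**Figure D4:**
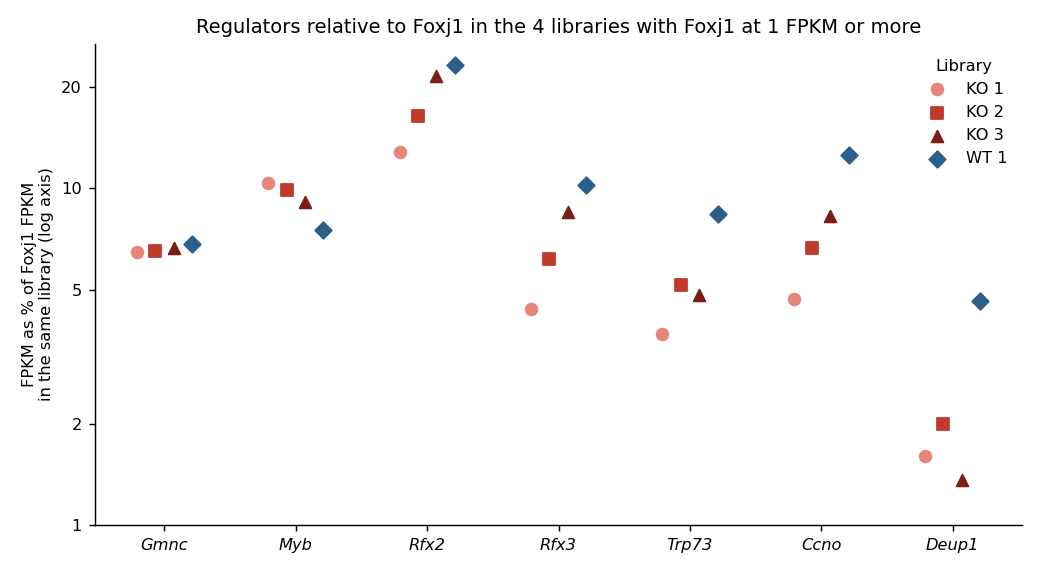
FPKM of 7 regulators as a percent of the FPKM of Foxj1 in the same library (log axis) in KO 1, KO 2, KO 3 and WT 1; Mcidas and Cdc20b are left out because they stay near 0. Gmnc lies between 6.47% and 6.85% in all 4, while Trp73, Ccno and Deup1 have their highest point in WT 1.

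The order of profiles over the 6 libraries, drawn from the same FPKM values, also placed Gmnc and Myb nearest to Foxj1 among the tested regulators. Each library's share of a gene's summed FPKM was compared with that of Foxj1, as the sum of absolute differences divided by 2, over 12538 other tested genes. Gmnc ranked 11 with a distance of 0.017 and Myb 119 with 0.044, while Trp73 ranked 367, Ccno 540, Rfx3 714 and Rfx2 725 (distance 0.238). The 5 nearest genes outside the 10, leaving out predicted genes and clones, were Pifo (primary cilium formation, 8.06, 8.18 and 3.73 FPKM in KO libraries 1 to 3, against 2.67 FPKM in WT 1 and 0 in the other WT libraries), Ccdc187, the receptor Fgfr4, the kinase Mapk15 and the metallothionein Mt3, at distances of 0.009 to 0.015. The distance is a description over 6 libraries. WT 2 and WT 3 hold 0.028% and 0% of the summed Foxj1 FPKM, against 12.6% and 10.4% of that of Rfx2.

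The genes that these regulators act with or on were counted in lists that leave the 10 out, beside all tested genes, of which 9.13% were higher and 4.43% lower in the libraries labelled KO at an unadjusted p under 0.05 by limma. No list member passed the adjusted threshold. The targets in the axoneme come first. Of 24 listed genes of motile cilium structure 22 were in the table and 17 were tested. Of these 17, 15 were higher at an unadjusted p under 0.05 and 0 lower, with a median log2 difference of 1.77 against -0.05 over all tested genes. The same 15 were under 1 FPKM in WT 2 and WT 3 and reached the filter only through the other 4 libraries, so the count and the median support no difference, and the epithelial list had a median of 2.51. Among them Ccdc39 and Ccdc40, which set the repeat of the axoneme, had differences of 1.78 and 1.64, Drc1, of the nexin-dynein complex, had 1.35 and Cfap44 had 2.48. Tekt2 and Rsph9, with 0.47 and 0.55, were the tested exceptions, chosen after their values were seen, and both kept over 1 FPKM in WT 2 and WT 3. The 22 genes in the table summed to 105, 111 and 49 FPKM in KO libraries 1 to 3, against 46.2, 7.27 and 7.77 FPKM in WT libraries 1 to 3. Of the sums in WT 2 and WT 3, Rsph9 made up 2.70 and 4.85 FPKM and Tekt2 3.24 and 1.37 FPKM. Foxj1 had 0.034 and 0 FPKM in these libraries.

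E2f4 and E2f5, the partners of GEMC1 and Multicilin, had 14.7 to 15.9 and 5.96 to 7.05 FPKM in the libraries labelled KO and 13.8 to 17.2 and 4.92 to 6.19 FPKM in WT, with log2 differences of -0.01 and 0.21. Of the 15 genes of this complex and of Notch input, Hey1, a Notch target, was the 1 with an unadjusted p under 0.05 (0.61, higher), a share near that of all tested genes. Dll4, a Notch ligand, had 0.41 and Jag2, another, had 0.44. Among 7 tested other RFX and ciliary transcription factors Fank1, a factor of ciliated and germ cells, was the 1 at that level (1.40). Over all tested genes 9.13% were higher at that level. Fank1 had 3.12, 3.79 and 1.3 FPKM in KO libraries 1 to 3, against 1.43, 0 and 0.025 FPKM in WT libraries 1 to 3. It reached the filter only through the libraries where it was high, so its call supports no difference. Rfx1, Rfxap and Rfx7 had 0.24, 0.21 and 0.15, and Foxn4, which works with Foxj1 in frog embryos, was at 0.146 FPKM or less in every library.

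General centriole assembly and the cell cycle machinery that centriole multiplication borrows were counted in the same way, and the centriole count is near the 9.13% of all tested genes. Of 22 tested centriole genes 2 were higher at an unadjusted p under 0.05 and 0 lower (median 0.09): Cetn4, a centrin (0.95), and Ccp110, a cap on the growing centriole and a known miR-449 target (0.51). Cep97 and Spice1 had 0.21 and 0.23, and Plk4, the kinase that starts a new centriole, had 0.13. Of 13 tested cell cycle genes 0 were higher and 1 lower at that level, Ccnd2 (-0.37), with a median of 0.18. Wee1 had 0.74, Cdk1 0.45 and Cdc20 0.44. Stil, an assembly factor, had under 0.34 FPKM in every library. Ccdc78, a deuterosome protein below the filter, had 0.762, 1.12 and 0.279 FPKM in KO libraries 1 to 3, against 0.129, 0 and 0.056 FPKM in WT libraries 1 to 3.

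**Figure D5:**
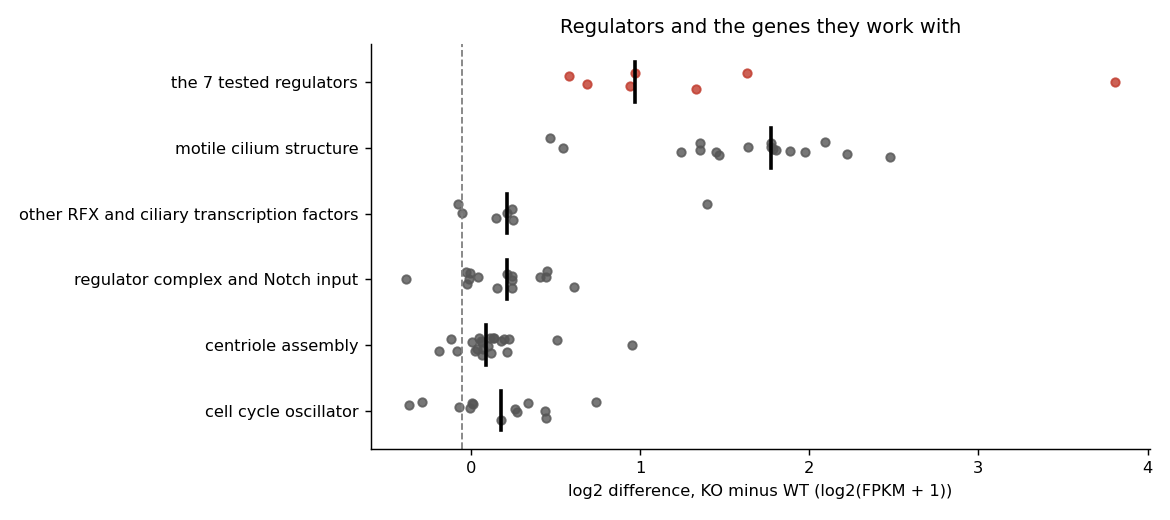
Log2 difference, KO minus WT on the log2(FPKM + 1) scale, of the 7 tested regulators (red) and of each tested gene of 5 lists (grey); black bars are list medians and the dashed line is the median of all tested genes (-0.05). Cilium structure genes have a median of 1.77, and the other lists have medians between 0.09 and 0.21.

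Markers of further cell types were counted with the same fit. Over all tested genes 9.13% were higher and 4.43% lower at an unadjusted p under 0.05 by limma. In the efferent duct list 5 of 6 tested genes were higher at an unadjusted p under 0.05 (median 1.64), among them the transcription factor Pax8, with 10.6, 11.3 and 4.86 FPKM in KO libraries 1 to 3 against 4.25, 0.029 and 0.045 FPKM in WT libraries 1 to 3. Pax8, Lrp2 and Slc9a3 reached the filter only through the 4 libraries outside WT 2 and WT 3, so this count supports no difference either. The 8 tested spermatid genes had 0 at that level (median 0.33). Of 9 listed lymphocyte and blood progenitor genes 3 were tested, Kit being higher and Cd79a lower at that level and Cd34 at the median of 0.06. The mesothelial list had 0 of 5 (median -0.22) and the mature adipocyte list 1 of 8 lower, Cidec (median -0.46). All 8 adipocyte genes had negative log2 differences, as did 7427 of the 12539 tested genes.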

How the data were processed

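Total RNA was made into stranded mRNA libraries, per the labels' protocols. STAR 2.5.4, Cufflinks and Cuffdiff 2.2.1 with mm10 are named in the submitters' processing notes. The deposited table holds 1 column per library, read as FPKM by the authors from those tools and the values, since no header names the unit. The sources used here do not give the depth scaling, or whether counting used strand. Myb, Trp73 and Cdc20b share exon bases with genes on the opposite strand, so reads of both may mix. Sums of FPKM ran from 426966 to 439354 in the libraries labelled KO and from 468499 to 637902 in WT. Steps between low values gave depths relative to WT 1 of 0.651 to 0.946 in the libraries labelled KO and 0.79 in WT 2, with no clear step in WT 3. Total depth is unknown, so no counting interval is given, and values under about 0.1 FPKM may rest on few fragments.

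The 21853 rows included 24 repeats of a symbol, for which only the row of highest mean was used. A pseudocount of 1 was added, log2 was taken, and limma 3.58.1 (R 4.3.3) compared the groups two-sided with a mean-variance trend and no further term. Benjamini-Hochberg adjustment ran over all 12539 genes averaging 1 FPKM or more. This scale understates the change of low genes. Exact permutation tests used SciPy 1.17.1. The fit was tested on simulated data. The genes and lists were chosen with earlier results of these data known. Text names the 10 regulators, Zfp251, the 4 genes with the smallest p of each list, marker genes and the 5 profiles nearest to Foxj1, and others were chosen after their values were seen. Positions come from GENCODE vM21 on GRCm38, and all 10 identifiers matched it. Same-numbered libraries were not paired. Alternatives were other pseudocounts, filters and scalings, no trend, a replicate block and libraries left out.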

Additional observations from a re-analysis of the deposited data

How the results depend on the processing

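With 1 library left out, the count of genes past limma's adjusted threshold ran from 0 to 482 and that of the regulators from 0 to 4, both highest without WT 1, where Foxj1 is at 0.034 FPKM or less in the WT libraries left; these passes therefore support no difference. The Zfp251 difference ran from 0.65 to 0.78 and passed without WT 1 (0.78). The median of the tested regulators was 0.97, and it was 2.67 at a pseudocount of 0.1. With the filter at 5 FPKM Foxj1 was the 1 regulator left, at its unchanged difference of 3.80. With no filter 1 gene passed, Exo1 (0.386, 0.397 and 0.395 FPKM in KO libraries 1 to 3 against 0.154, 0.155 and 0.147 FPKM in WT libraries 1 to 3). All 7 tested regulators stayed higher in the libraries labelled KO in every setting that tested them. With the replicate block 0 genes and 0 regulators passed, the smallest adjusted p of a regulator being 0.0881. Deviations of same-numbered libraries correlated at 0.228, -0.2 and 0.22, so the numbers were not taken as pairs. With all 6 libraries kept, unadjusted p rose above 0.05 for Ccno with quantile normalization (0.0605) and with no filter (0.0611), for Trp73 with no filter (0.0565) and for Rfx3 with quantile normalization (0.119). With 1 library left out it also did so for Ccno (up to 0.104), Trp73 (up to 0.109) and Rfx3 (up to 0.091). Over all alternatives the limma adjusted p ran from 0.00579 to 0.716 for Foxj1, from 0.0345 to 0.716 for Gmnc, from 0.0348 to 0.716 for Myb and from 0.043 to 0.827 for Ccno.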
